A study of Homo sapiens with 4 samples.

Results

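The cyclin-dependent kinase (CDK) inhibitors are 7 small proteins that bind CDKs or their cyclin complexes and hold the cell cycle back. They were taken as every probe whose gene name on the array was CDKN1A, CDKN1B, CDKN1C, CDKN2A, CDKN2B, CDKN2C or CDKN2D, which gave 9 probes of 58201 and 7 genes of 43317 names. CDKN1B and CDKN2A had 2 probes each and the other 5 genes had 1. RNA was measured on 1-colour microarrays in 2 established human cancer lines, HCT116 (colorectal, grown in McCoy's 5A medium) and A549 (lung, grown in DMEM). Each line was transfected by means of Dharmafect1 either with the microRNA miR-891b or with the negative control NC1, and 1 array was hybridised for each of the 4 groups. The series is titled for PSAT1, an enzyme of serine synthesis, and for the release of extracellular vesicles. The time between transfection and harvest is not given in the sources used here.

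The family has 2 branches. The Cip/Kip branch (CDKN1A, or p21; CDKN1B, or p27; CDKN1C, or p57) binds complexes of cyclins with CDK2 and related kinases. The INK4 branch (CDKN2A, CDKN2B, CDKN2C and CDKN2D, which encode p16, p15, p18 and p19) binds CDK4 and CDK6 and keeps cyclin D from activating them. Both branches keep the retinoblastoma protein in its active form, and genes of both are often silenced or lost in tumours. CDKN2A also encodes p14ARF, an unrelated tumour suppressor, from another reading frame.

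The microRNA that was transfected is shown because its seed, bases 2 to 8 in capitals, sets which messages it pairs with. Its sequence is from RefSeq (GRCh38.p14, chrX:146001100-146001121, minus strand).
hsa-miR-891b: uGCAACUUaccugagucauuga
The DNA word that this seed pairs with is AAGTTGC. It was read on the probe's own strand in none of the 9 inhibitor probes (0 of 9), against 229 of all 58201 probes (0.393%), and on either strand again in 0 of 9, against 0.787% of all probes. These are 60-base probes and not transcripts, so the count says nothing of the rest of each message.

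The next sequences are probes that lie in protein-coding exons, shown because the results on CDKN2A turn on where its probes sit and because CDKN1A and CDKN1B are the Cip/Kip genes whose probes lie in coding sequence. They are the array's own probes, with positions on hg19.
CDKN2A, probe 2, chr9:21970901-21970960, minus strand: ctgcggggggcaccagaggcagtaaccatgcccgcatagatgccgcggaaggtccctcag
CDKN1A, chr6:36652178-36652237, plus strand: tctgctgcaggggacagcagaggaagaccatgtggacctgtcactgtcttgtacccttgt
CDKN1B, probe 2, chr12:12871119-12871178, plus strand: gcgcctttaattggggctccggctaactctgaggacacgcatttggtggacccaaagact
The CDKN2A probe lies in the exon that the p16 and p14ARF messages share. The other 6 probes are given by position only. Those of CDKN1B (probe 1, chr12:12874940-12874999), CDKN1C (chr11:2904903-2904962), CDKN2A (probe 1, chr9:21968039-21968098), CDKN2C (chr1:51439963-51440022) and CDKN2D (chr19:10677226-10677285) lie towards the 3′ end of the message. That of CDKN2B (chr9:22008979-22009038) lies towards its 5′ end.

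Levels are given as log2 processed signal after subtraction of the 75th percentile of its array, so 0 is the level that 75% of the gene probes on that array stay below. Levels of different probes depend on the probe and are not set against each other. With 1 array a group there is no replicate check within a line, p-values are not given for a single line, and a change is called by size, at 2-fold or more (1 log2 unit). The scanner's own error model gave each bright inhibitor spot an error of about 10.0%, which comes to 0.204 on a log2 difference between 2 arrays. It covers the scan only, not the culture, the transfection or the labelling. HCT116 arrays shared slide 1 and scan 1, and A549 arrays shared slide 2 and scan 2, so a difference between lines and one between slides cannot be told apart, whereas the transfections of a line shared a slide.

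The arrays had 44.7% to 50.3% of their probes well above background by the scanner software's mark, and no gene spot was saturated. Between 0.0181% and 10.4% of gene spots lay in areas of stray signal (defined in the methods), most on the HCT116 miR-891b array. None of the 9 inhibitor spots lay in one. Both line labels went with their markers on the NC1 arrays, where CDX2, CLDN7, EPCAM and CLDN3 were 3.13 to 6.75 log2 units lower in A549. AKR1B10, AKR1C1 and ALDH3A1 were 7.89 to 12.17 higher in A549, and ALDH1A1 was at least 8350-fold higher. The ALDH3A1 spot lay in an area of stray signal on at least 1 array (18.7%). PSAT1 differed between miR-891b and NC1 by -0.81 in HCT116 and -1.58 in A549.

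Across the family, the lines differed more than the transfections did. Of the 6 inhibitor genes measured on all 4 arrays, CDKN1A, CDKN1C and CDKN2A were lower by 2-fold or more in A549 than in HCT116 on the NC1 arrays and CDKN2C was at least 2-fold higher, so 4 of 6 passed that size. Over all genes measured on both NC1 arrays, the share at least 2-fold lower in A549 was 16.2% and the share higher 11.1%. After miR-891b, 1 of 6 inhibitor genes changed by 2-fold or more in A549, namely CDKN1C, which was higher, and 0 of 6 did in HCT116. Over all genes, 5.57% were at least 2-fold lower and 4.01% higher in A549, and 0.843% lower and 1.16% higher in HCT116. CDKN2B was well above background on 1 array alone and is in none of these counts.

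**Figure D1:**
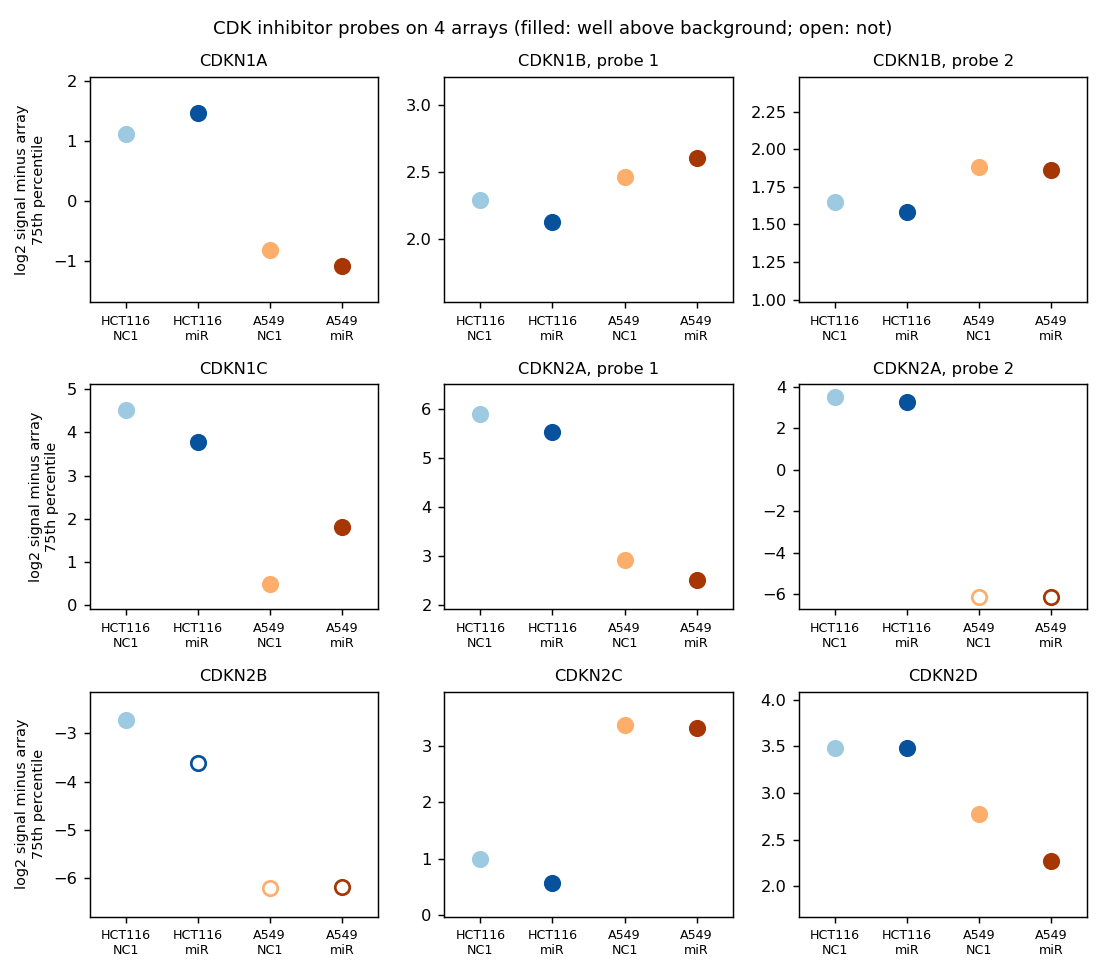
Level of each of the 9 inhibitor probes on the 4 arrays, as log2 signal minus the array's 75th percentile (vertical axis, a separate scale for each probe), with 1 point per array. Filled points were well above background and open ones were not. Both CDKN1B probes vary little, CDKN1C and CDKN2A are high in HCT116, CDKN2C is high in A549, and the second CDKN2A probe drops to -6.12 and -6.13 in A549.

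CDKN1A encodes p21, an inhibitor known for arresting cells after DNA damage. Its level was 1.11 with NC1 and 1.47 with miR-891b in HCT116, and -0.82 with NC1 and -1.10 with miR-891b in A549. Both HCT116 arrays lay above both A549 arrays. How many of all genes were parted by line in this way was not counted, here or for the members below. A549 was 3.82-fold lower than HCT116 on the NC1 arrays and 5.91-fold lower on the miR-891b arrays. After miR-891b the probe was 1.28-fold higher in HCT116 (0.35) and 1.21-fold lower in A549 (-0.28), and 26.3% and 55.8% of all genes measured in those lines changed by as much or more.

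CDKN1B encodes p27, whose amount in the cell is set largely by its degradation. Its first probe read 2.29 with NC1 and 2.13 with miR-891b in HCT116, and 2.46 with NC1 and 2.61 with miR-891b in A549. The second probe, in the coding sequence printed above, read 1.65, 1.58, 1.88 and 1.86 in the same order. On each probe both A549 arrays lay above both HCT116 arrays, by 0.17 to 0.48 at the same transfection, and the 2 NC1 arrays differed by 0.17 and 0.23, near the scan error. The changes after miR-891b were -0.16 and -0.07 in HCT116 and 0.15 and -0.02 in A549, all smaller than the scan error, and the probes had different signs in A549. CDKN1B was the steadiest of the measured members, with 4 values that spanned 0.48 on probe 1 and 0.30 on probe 2.

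CDKN1C encodes p57, the member of the family that is expressed from the maternal allele in the imprinted domain of chromosome 11. Processed signals were 1250 with NC1 and 777 with miR-891b in HCT116, and 106 with NC1 and 260 with miR-891b in A549, which are levels of 4.51, 3.77, 0.50 and 1.81. Both HCT116 arrays were above both A549 arrays, and the 2 lines lay closer together with miR-891b than with NC1. The A549 level was 16.1-fold lower than that of HCT116 on the NC1 arrays and 3.89-fold lower on the miR-891b arrays.

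After miR-891b the CDKN1C probe was 1.67-fold lower in HCT116 (-0.74) and 2.47-fold higher in A549 (1.31). Among genes measured in each line, 5.01% changed by as much or more in HCT116 and 4.79% in A549. The 2 changes were 2.05 log2 units apart, and 0.985% of the 18065 genes measured on all arrays had changes as far apart. The gap between the lines and the changes within them share arrays, so they are not separate measurements.

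CDKN2A was read by 2 probes that differed in A549. Probe 1, near the 3′ end of the message, had processed signals of 3280 with NC1 and 2640 with miR-891b in HCT116, and 562 with NC1 and 421 with miR-891b in A549, or levels of 5.90, 5.54, 2.91 and 2.50. Probe 2, in the shared coding exon 2.86 kb away, had signals of 625 and 543 in HCT116 and of 1.08 and 1.06 in A549. In HCT116 both probes were well above background, whereas in A549 probe 1 was and probe 2 was not on either array.

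On probe 1 A549 was 7.94-fold lower than HCT116 with NC1 and 8.18-fold lower with miR-891b. Probe 2 was at least 177-fold lower in A549 with NC1 and at least 146-fold lower with miR-891b. These bounds set the bright array against the lowest signal that was well above background on the dim array. After miR-891b probe 1 changed by -0.36 in HCT116 and -0.41 in A549, and probe 2 by -0.26 in HCT116. Whether the A549 signal of probe 1 is CDKN2A message was not tested, and since probe 2 was at background there, every A549 change given for CDKN2A is that of probe 1 alone.

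CDKN2B encodes p15, a target of TGF-beta signalling that lies beside CDKN2A. Its signals were 8.28 with NC1 and 4.63 with miR-891b in HCT116, and 1.01 with NC1 and 1.01 with miR-891b in A549. Only the first was well above background, where the lowest signals so marked were 4.69 to 6.49 on the 4 arrays. HCT116 miR-891b was at least 1.33-fold lower than HCT116 NC1, and A549 NC1 was at least 2.34-fold lower than HCT116 NC1. The scan errors on these differences were 0.494 and 1.47 log2 units, each larger than its bound. No change can be given for A549, where both arrays were dim.

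CDKN2C encodes p18 and was the only one of the 6 measured members at least 2-fold higher in A549. Its level was 1.00 with NC1 and 0.57 with miR-891b in HCT116, and 3.37 with NC1 and 3.32 with miR-891b in A549. The A549 arrays were 5.19-fold higher with NC1 and 6.72-fold higher with miR-891b, with no overlap between the lines. The changes after miR-891b were -0.43 in HCT116 and -0.05 in A549, the second under the scan error and of the other sign under 3 other scalings of the arrays.

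CDKN2D encodes p19, the fourth INK4 protein. It read 3.48 with NC1 and 3.49 with miR-891b in HCT116, and 2.77 with NC1 and 2.27 with miR-891b in A549. Both HCT116 arrays were higher, by 1.63-fold with NC1 and 2.32-fold with miR-891b. The HCT116 arrays differed by 0.0049, and 98.6% of genes changed by as much or more in that line. The A549 change was -0.50, or 1.41-fold lower, and 32.6% of genes changed by as much or more.

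**Figure D2:**
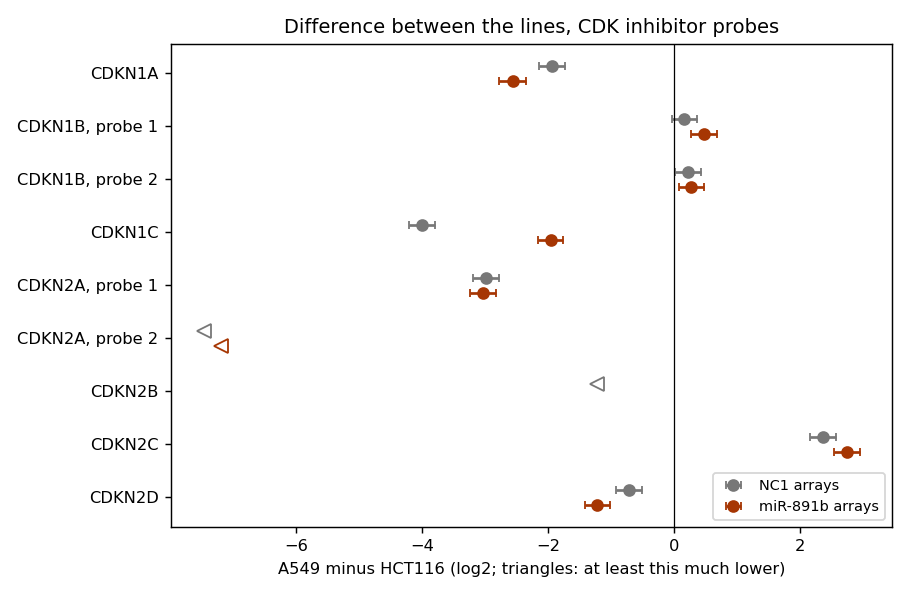
A549 minus HCT116 (horizontal axis, log2) for each inhibitor probe, on the NC1 arrays (grey) and the miR-891b arrays (red). Bars are the scanner's error on each difference (0.204 for most probes) and open triangles are lower bounds on the size of a difference. CDKN1C moves from -4.01 with NC1 to -1.96 with miR-891b, while probe 1 of CDKN2A stays near -3 and CDKN2C lies between 2.37 and 2.75.

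The lines were next compared over all 4 arrays, with limma and 1 term each for line and transfection, over 22712 genes. For the line, 31.9% of genes passed at an adjusted p of 0.05 (Benjamini-Hochberg), and 4 of the 6 members in the fit did. Probe 1 of CDKN2A, with its A549 signal of untested source, was -3.01 ± 0.23 (SE, 4 arrays) in A549 relative to HCT116, with a limma adjusted p of 0.0027. CDKN2C was 2.56 ± 0.25 higher (limma adjusted p = 0.0047), CDKN1A was -2.25 ± 0.28 (limma adjusted p = 0.0087) and CDKN1C was -2.98 ± 0.55 (limma adjusted p = 0.024). CDKN2D, at -0.96 ± 0.26 (limma adjusted p = 0.058), and CDKN1B, at 0.32 ± 0.24 (limma adjusted p = 0.36), did not pass.

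These p-values take the 2 transfections as the replicates of a line, with 1 residual degree of freedom. With normexp background correction and quantile normalization CDKN1A was -1.19 (limma adjusted p = 0.029), and CDKN1C did not pass (-2.47, limma adjusted p = 0.062, where its values over the alternatives ran from 0.00056 to 0.062).

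For the transfection, the same limma fit gave an adjusted p under 0.05 to 0.00% of genes, none of the members among them, and an unadjusted p under 0.05 to 1214 genes. The lowest adjusted p of any gene was 0.79. Probe 1 of CDKN2A had the largest effect of the members relative to its error, -0.39 ± 0.23 (limma adjusted p = 0.79). CDKN1C, with opposite signs in the lines, had 0.28 ± 0.55 (limma adjusted p = 0.93). The other 4 members in the fit lay between -0.25 and 0.04, with limma adjusted p of 0.86 to 0.995.

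By sign alone, 4 of 6 inhibitor genes were lower after miR-891b in HCT116 and 4 of 6 in A549, beside 55.5% and 55.6% of all genes. CDKN1A, CDKN1B, CDKN1C and CDKN2D had different signs in the 2 lines, as did 45.1% of all genes measured on all arrays. The median change over the 6 genes was -0.26 in HCT116, where that of all genes was -0.04, and -0.16 in A549, where that of all genes was -0.06. Both medians are of a size that other settings move, to between -0.36 and -0.18 in HCT116 and up to 0.0060 in A549.

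**Figure D3:**
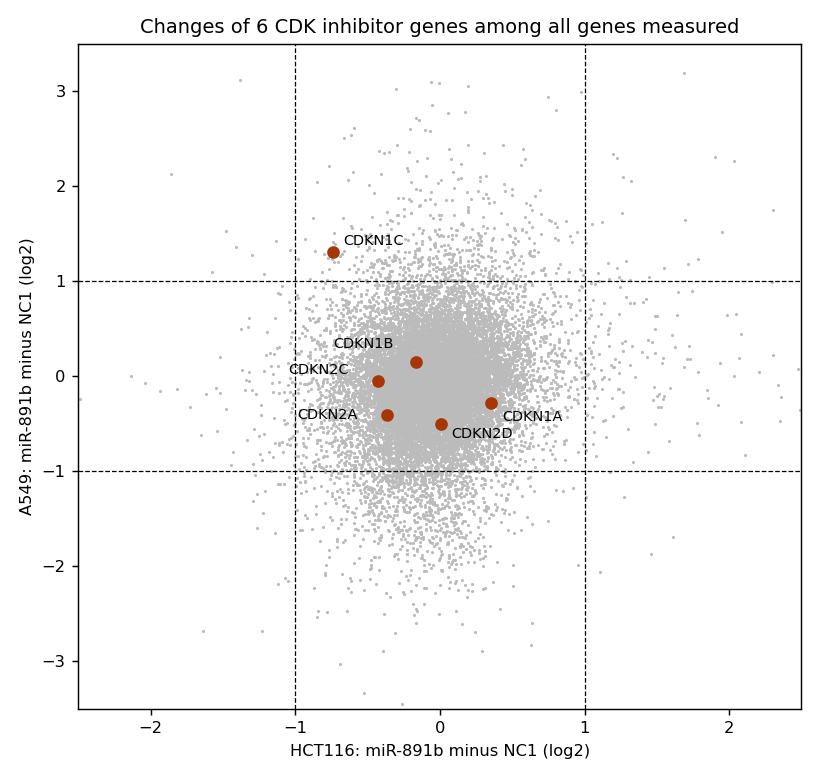
Change after miR-891b in HCT116 (horizontal axis) against that in A549 (vertical axis), both log2, for 18065 genes measured on all arrays (grey) and the 6 inhibitor genes among them (red). Dashed lines mark 2-fold, and 10 genes lie outside the axes. CDKN1C stands at -0.74 and 1.31, at the edge of the cloud, and the other 5 lie inside the dashed square.

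The probes around CDKN2A on chromosome 9 were then read one by one, within a window of 250 kb that was chosen after values had been seen. Of 16 probes in the window, 3 were well above background on all arrays. A549 is widely catalogued as having lost both copies of the CDKN2A region; copy number was not measured here. MTAP, the neighbouring gene for an enzyme of methionine salvage, had 3 probes there. The probe farthest from CDKN2A, at chr9:21802766-21815476 and 165 kb away, gave signals of 420 and 472 in HCT116 and of 288 and 225 in A549, NC1 first.

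The next MTAP probe, at chr9:21837969-21854648, gave 958 and 1160 in HCT116 and 1.27 and 1.31 in A549. The third, at chr9:21865830-21865889, gave 2230 and 2520 in HCT116 and 1.03 and 1.04 in A549. In A549 these were at least 271-fold and at least 631-fold lower on the NC1 arrays. In order along the chromosome, A549 thus had signal at the first MTAP probe, none well above background at the next pair, signal at probe 1 of CDKN2A, and none well above background at probe 2 or at CDKN2B.

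A probe named for CDKN2A-AS1 lies 0.502 kb from probe 1 of CDKN2A and read 9.18 and 8.61 on the NC1 arrays and 2.96 and 5.18 on the miR-891b arrays. It was well above background on the NC1 array of each line only. CDKN2B-AS1, the antisense RNA that runs through CDKN2B, had 4 probes, none of them well above background in A549. The probe at chr9:22118707-22118766 read 5.66 and 10.1 in HCT116 against 1.16 and 1.18 in A549, and the other 3 were dim on HCT116 NC1 too. One of those read 24.3 on HCT116 miR-891b, where its spot lay in an area of stray signal (17.4%). Beyond them, 188 kb from CDKN2A, an unnamed probe had 2120, 2210, 1580 and 939, all well above background. Between CDKN2A and CDKN2B, 27.9 kb from probe 1, a probe for the transcript lnc-C9orf53-1 read 6.18 and 6.08 in A549, just over the lowest signals so marked on those arrays (4.82 and 4.86).

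Around CDKN1C on chromosome 11, 11 of 21 probes within 250 kb were well above background on all arrays. KCNQ1, a potassium channel gene of the same imprinted domain, was the nearest measured gene on one side. Its probe, 34.8 kb away, gave signals of 296 with NC1 and 142 with miR-891b in HCT116, and 16.7 with NC1 and 30.4 with miR-891b in A549. It was -1.12 after miR-891b in HCT116, 0.88 in A549, and -4.59 in A549 relative to HCT116 with NC1. For CDKN1C the same 3 values were -0.74, 1.31 and -4.01, so the signs were the same. The changes of OSBPL5, a lipid transfer gene 204 kb away on the other side, also had these signs but were smaller, at -0.36, 0.48 and -2.45. OSBPL5 was on no list, and its other probe was well above background on HCT116 NC1 alone. Not all genes there had these signs. CARS changed by -0.24 in HCT116 and -0.26 in A549. NAP1L4 changed by 0.17 and -0.19 on its nearer probe and by 0.66 and -0.19 on its farther one. The share of all genes with these signs was not counted.

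PHLDA2, a maternally expressed growth inhibitor 44.8 kb away, was also lower in A549 (-2.73) but changed little after miR-891b, by -0.15 and -0.08. SLC22A18, 41.4 kb away, was higher in A549 (0.74) and lower after miR-891b in both lines (-0.72 and -0.45). SLC22A18AS, the measured gene nearest to CDKN1C at 4.46 kb, was also higher in A549 with NC1 (1.455). After miR-891b it changed by -0.10 in HCT116 and -0.13 in A549. KCNQ1OT1, the antisense RNA whose transcription is known to silence CDKN1C on the paternal allele, had 2 probes. One read 6.58 and 4.86 in HCT116 and 117 and 265 in A549, with a change of 1.18 in A549. The other read 39.6, 45.4, 82.4 and 131, with changes of 0.14 and 0.68, and its spot lay in an area of stray signal on 1 array (17.9%).

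**Figure D4:**
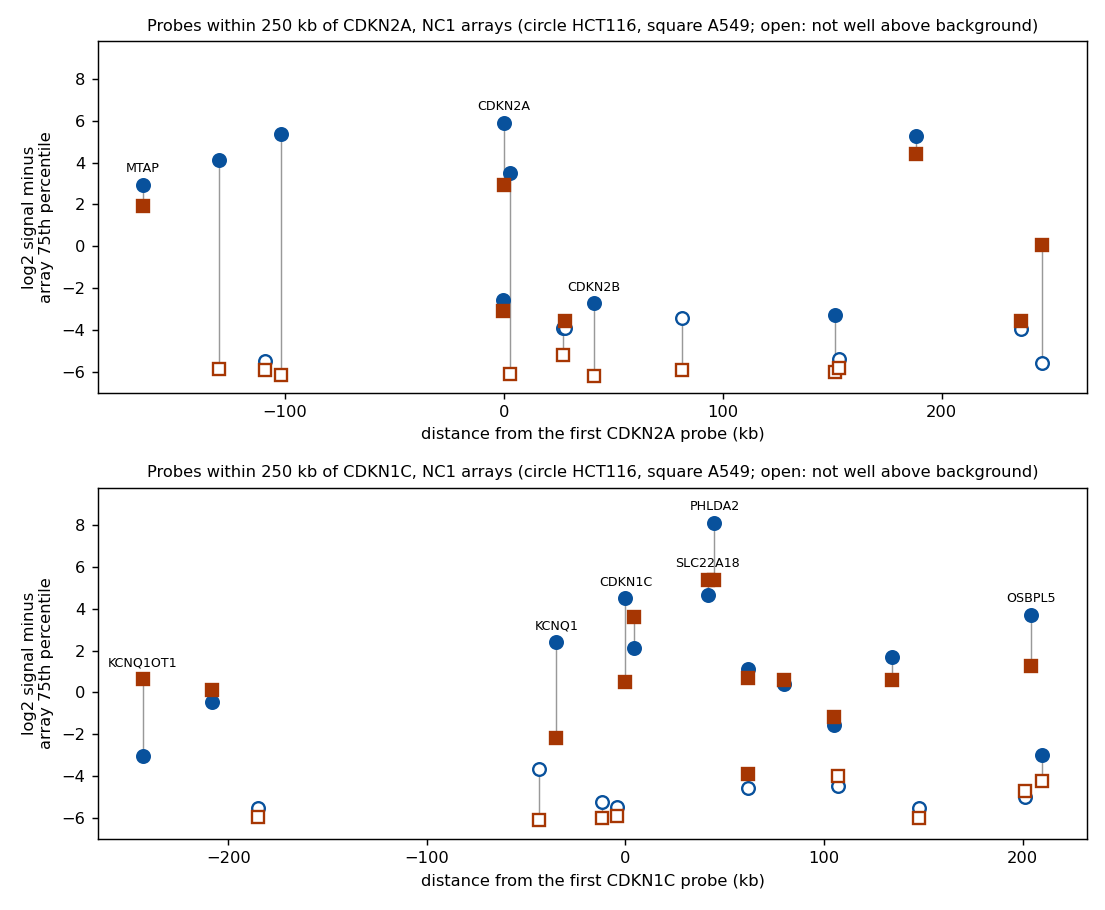
Level on the NC1 arrays (vertical axis, log2 signal minus the array's 75th percentile) of every probe within 250 kb of CDKN2A (top, 16 probes) and CDKN1C (bottom, 21 probes), by distance from the member's probe in kb. Circles are HCT116, squares are A549 and open symbols were not well above background. Around CDKN2A the A549 squares fall to background at the MTAP probes 130 and 102 kb away, at probe 2 of CDKN2A and at CDKN2B, and stand well above it at probe 1.

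GPR19 and APOLD1 flank CDKN1B. In A549 GPR19 was -1.73 after miR-891b, beside 0.15 for CDKN1B. The 2 APOLD1 probes differed there, at 0.90 and 0.04, and the spots of both lay in areas of stray signal on at least 1 array (11.6% and 17.0%). SRSF3, next to CDKN1A, changed by 0.12 in HCT116 and -0.63 in A549, with the same signs as CDKN1A. FAF1, next to CDKN2C, changed by 0.09 and -0.35.

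The kinases and cyclins that the inhibitors bind were described from a list of 12 genes, of which 10 were measured. In A549, 6 of 10 were at least 2-fold lower after miR-891b (5.57% of all genes) and 0 higher (4.01%), with a median of -1.35. They were CCNA2 (-1.87), CDK1 (-1.79), CCNB1 (-1.76), CCND1 (-1.61), CCNE2 (-1.48) and CDK2 (-1.22), which serve S phase, mitosis or, for CCND1, the exit from G1. The INK4 targets CDK4 and CDK6 changed by 0.11 and 0.07. In HCT116, 0 of 10 reached 2-fold and the median was 0.09. Spots of CCNA2, CDK1 and CDK2 lay in areas of stray signal on at least 1 array (15.4% to 29.4%).

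General proliferation genes, among them CCNB1 of that list, moved the same way in A549. MKI67, TOP2A, CCNB1, AURKA, BUB1 and PLK1 were all at least 2-fold lower in A549 after miR-891b (6 of 6, median -1.67, from -1.90 to -1.58), and 0 of 6 were in HCT116 (median 0.07). In A549 5.57% of all genes were as much lower. The MKI67 spot lay in an area of stray signal on at least 1 array (10.3%). Of the inhibitor genes, 0 of 6 were 2-fold lower in A549, a count near the 5.57% of all genes that were. The part of proliferation in the change of CDKN1C was not tested, and in bulk RNA fewer cells with a message and less message per cell cannot be told apart.

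Of the pocket proteins that CDKs phosphorylate, RBL1 (p107) was lower in A549 (-1.51), while RB1 and RBL2 changed by -0.19 and -0.11, and none of 3 reached 2-fold in HCT116. The RB1 spot lay in an area of stray signal on at least 1 array (12.8%). Over 12 parts of the ubiquitin ligases that degrade p21, p27 or p57, the median changes were -0.21 in A549 and 0.0022 in HCT116. In HCT116 0 of 12 had a level at least 2-fold lower (0.843% of all genes), and in A549 5 did (5.57%). These were DTL (-2.04), which directs p21 degradation, CKS1B (-1.88), SKP2 (-1.29) and SKP1 (-1.15), which act on p27, and CDC20 (-1.85), the activator of the anaphase-promoting complex. The spots of DTL and CDC20 lay in areas of stray signal on at least 1 array. The CDKN1B message, in the same A549 arrays, changed by 0.15 on probe 1 and -0.02 on probe 2.

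Of 11 regulators of the INK4 genes measured on both NC1 arrays, 4 differed by 2-fold or more, all lower in A549, where 16.2% of all genes were, with a median of -0.68. They were CBX7 (-2.49), a Polycomb protein that represses CDKN2A, RING1 (-1.65), ID1 (-1.52), an inhibitor of the factors that activate CDKN2A, and KDM6B (-1.17). After miR-891b ID1 was -1.46 in A549, the only 1 of 12 at 2-fold (5.57% of all genes were as much lower), and 0 of 11 were in HCT116. EZH2, the Polycomb methyltransferase, was just short of it at -0.99 in A549.

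Of 14 transcription factors and partners that act on the inhibitor genes, 12 were measured. On the NC1 arrays 6 of 12 were lower in A549 by 2-fold or more and 1 was higher, with a median of -0.92. Over all genes 16.2% were lower and 11.1% higher by that size, with a median of -0.10. MYC, which represses CDKN1A and CDKN2B, was the farthest from 0 of the 12 at -2.03, though its spot lay in an area of stray signal on 1 array (12.3%). After miR-891b 1 of 12 reached 2-fold in A549, SMAD4 (-1.07), a mediator of TGF-beta signalling, and 0 of 12 in HCT116. In A549 5.57% of all genes were as much lower. TFAP4, a repressor of CDKN1A, was outside these counts, since it was well above background on HCT116 NC1 alone, and was at least 2.44-fold lower on HCT116 miR-891b and at least 4.31-fold lower on A549 NC1. Its spot lay in an area of stray signal on at least 1 array (12.5%). CDKN3, which shares the name but is a phosphatase outside the family, was -1.39 in A549.

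**Figure D5:**
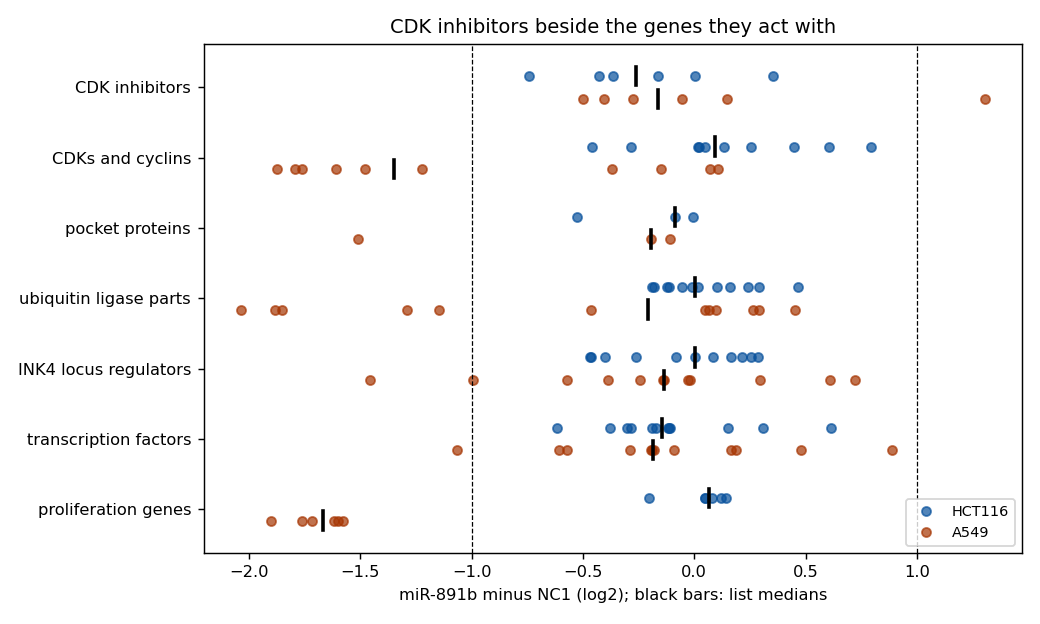
Change after miR-891b (horizontal axis, log2) of each measured gene of the inhibitor family and of 6 lists of related genes, in HCT116 (blue) and A549 (red), with black bars at list medians and dashed lines at 2-fold. In A549 the CDKs and cyclins have a median of -1.35 and the proliferation genes one of -1.67, while the inhibitors have one of -0.16 with CDKN1C alone to the right of the 2-fold line.

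The genes with the pattern most like each member were found by the distance between their levels on the 4 arrays, each centred on its own mean, among 12792 genes with current names. They are given for members whose levels spanned at least 1 log2 unit, and with 4 arrays many genes can come close. CDKN1C was followed most closely by KLRC3, at a distance of 0.23 log2 units, ATP2C2 (0.27) and CAMK2N2 (0.33). The nearest genes to CDKN2A were REEP6 (0.052), ZNF215 (0.12) and CYSRT1 (0.16), and those nearest to CDKN2C were BTBD16 (0.11), NR2E3 (0.12) and ISG20 (0.14). SORD (0.080) and SNORD47 (0.11) were the first 2 for CDKN1A, and HSPA8 (0.035), TTF2 (0.037) and LRRC20 (0.045) the first 3 for CDKN2D. CDKN1C thus had its nearest gene farther off than the other 4 members compared. Its 4 values also spanned the most (4.01 log2 units, against 1.21 to 3.40 for the others), and the distance was not scaled by span.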

How the data were processed

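Total RNA (100 ng) was labelled with Cy3, per the labels. The deposited files of each array hold linear intensity, made with Agilent Feature Extraction 11.5.1.1 per the submitters' processing notes, with probe positions on hg19 per the file headers. The authors' deposited table holds log2 values, with their making not stated. Set beside the levels computed here they were off by a median of 0.0069 or less (at most 0.11), so scale and direction were the same, and their column medians ran from -3.8 to -3.6.

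Here log2 processed signal was averaged over spots of a probe without outlier marks, and the 75th percentile over gene probes was subtracted. A gene was read from its brightest probe by mean level over the 4 arrays. It counted as measured if both arrays compared had that probe well above background, and was fitted if 2 or more of the 4 did. limma 3.58.1 (lmFit, eBayes) in R 4.3.3 gave the adjusted p-values, and its step was tested on simulated data. Other values came from pandas 2.3.3 and numpy 2.4.6 under Python 3.11.15. A spot lay in an area of stray signal if 10% or more of its neighbours (10 rows and columns either way) that were dim elsewhere passed the background mark. The number of arrays limits the precision, and separate cultures are not stated in the labels.

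All members are named. Genes of the related lists are given by counts, with values for those changed at least 2-fold in a line or at least 4-fold apart between the NC1 arrays (up to 8 a list), and for some smaller changes picked afterwards. For each member spanning 1 log2 unit the 3 nearest genes were ranked, and 1 of them is left out here. Some items of the lists are not reported here. The members and lists were chosen with earlier results of these data known. Of 43317 gene names, 21081 were current RefSeq symbols (GRCh38.p14), all 7 members among them. The alternatives were other background corrections, scalings, filters, probe rules and thresholds and the authors' values.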

Additional observations from a re-analysis of the deposited data

Results flagged for a closer look

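For 4 inhibitor genes the single comparison in HCT116 and the single comparison in A549 had opposite signs, and no test of that difference was run. CDKN1C changed by -0.74 in HCT116 and 1.31 in A549, both more than 3 times the scan error of its difference. CDKN1A changed by 0.35 in HCT116 and -0.28 in A549. CDKN1B changed by -0.16 and 0.15, both under the scan error. CDKN2D changed by 0.0049 in HCT116, which has no sign beyond the scan error, and by -0.50 in A549. Opposite signs were also found for 45.1% of all genes measured on all arrays.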

How the results depend on the processing

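All 48 values of the 6 measured inhibitors under other settings kept their sign for A549 minus HCT116 on the NC1 arrays, as did 45 of 48 for the change in A549 and 47 of 48 for the change in HCT116. The exceptions were CDKN2C in A549 (0.099 with normexp and quantile normalization, 0.080 with quantile normalization, 0.0086 with median scaling) and CDKN2D in HCT116 (0.00 in the authors' values). These counts are not of separate checks, since several settings could hardly move a member. Each member probe had 1 spot, outside areas of stray signal. The settings on outlier spots, dim probes and stray areas therefore gave nearly the main value. So did the authors' values, and the mean over probes for genes with 1 usable probe. With normexp and quantile normalization CDKN1A differed between the NC1 arrays by -1.01 instead of -1.94, and its A549 change was -0.087. CDKN1C stayed past 2-fold in A549 (1.06 to 1.41). At a threshold of 1.5-fold, 1 inhibitor (CDKN1C) passed in HCT116 instead of 0. The share of all genes past 1.5-fold was not counted, but 5.01% of genes measured in HCT116 changed by as much as CDKN1C or more. The median of the inhibitors was -0.18 in HCT116 and 0.0060 in A549 with normexp and quantile normalization, and -0.36 and -0.054 with no filter on dim probes. Over all genes, 382 passed 2-fold in HCT116 and 2044 in A549, against 45 and 763 with normexp and quantile normalization and 4222 and 6015 with no filter. The limma fit gave 6 genes an adjusted p under 0.05 for miR-891b with no filter, instead of 0. In each case the cause was not tested. Of the called genes in HCT116 57.9% were higher, against 71.1% with normexp and quantile normalization, 64.3% with median scaling and 49.5% without probes in areas of stray signal, and with quantile normalization alone 188 were lower and 188 higher. Probes near background (CDKN2B, and CDKN2A probe 2 in A549) have only bounds. No paired analysis was possible beyond the limma fit itself, because each group has 1 array. The transfection term of that fit compares miR-891b with NC1 within a line and so within a slide, whereas its line term compares across slides.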

Other observations

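On the far side of the CDKN2A region, DMRTA1, a gene for a DM-domain protein, was dim on both HCT116 arrays and at least 4.05-fold higher on A549 NC1, with a change of 0.64 after miR-891b in A549. A probe for an unnamed transcript 246 kb from CDKN2A read 1.14 and 1.5 in HCT116 and 77.0 and 144 in A549, at least 12.0-fold higher on A549 NC1. Another probe for the same transcript, 236 kb away, read 3.55 and 1.49 in HCT116 and 6.27 and 5.32 in A549. That probe was well above background on A549 NC1 alone. AKR1B10, used as a marker of A549, was 4.47 log2 units higher after miR-891b in HCT116 and -0.19 in A549, while its level on HCT116 miR-891b (2.18) stayed below that on A549 NC1 (9.88).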
